A study of Mus musculus with 15 samples.

Results

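Small nuclear, nucleolar and structural RNA genes were examined in total RNA from mouse hearts at rest and during treatment with isoproterenol, a beta-adrenergic agonist that drives cardiac remodelling. The set was defined by gene symbol, taking symbols that start with Snora, Snord, Scarna, Rnu, Rn7s, Rmrp, Rpph1 or Rny. Of 181 listed genes with such a symbol, 104 had at least 10 counts summed over the 15 libraries and are described here, out of 26829 genes tested and 55401 listed. All mice were C57BL6 males of 12 weeks and no transgene or gene deletion is named for any group. The control group received saline (n = 4 libraries), and isoproterenol was given subcutaneously at 50 mg/kg per day for 4 days (n = 4), 8 days (n = 3) or 11 days (n = 4). Libraries within a group are named by the letters of their labels. The labels do not say whether each library came from its own animal, so p-values measure the spread between libraries.

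These RNAs are made to act as RNA and not to be translated. Small nucleolar RNAs (snoRNAs) pair with ribosomal RNA, where the C/D box family guides 2′-O-methylation and the H/ACA box family guides pseudouridylation, and in vertebrates most are cut out of introns of host genes. Some C/D box RNAs, among them U3 (Rnu3a and Rnu3b genes) and U8 (Snord118), act in the cleavage of ribosomal RNA precursors. Like U13 (Snord13), they are transcribed from promoters of their own. Small Cajal body RNAs (scaRNAs) guide modification of the spliceosomal small nuclear RNAs (snRNAs), 7SK RNA (Rn7sk) holds the elongation factor P-TEFb inactive, the RNA of the signal recognition particle (SRP; Rn7s1, Rn7s2) carries nascent secretory proteins to the endoplasmic reticulum, and Rmrp and Rpph1 are the RNA parts of RNase MRP and RNase P.

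Library depth ran from 25.4 M to 117.8 M expected counts. In 8-day library A, 15.8% of all counts fell on Lars2 and the overlapping model CT010467.1, against 0.0116% to 0.0916% in the other libraries. The 5 heart muscle markers (Myh6, Myl2, Tnnt2, Actc1, Ryr2) summed to 24205 to 31672 CPM (counts scaled to a library total of 1000000) per library, so the tissue matched its label. The 3 macrophage markers summed to 45.6 to 81.0 CPM in saline hearts and 109 to 213 CPM at 4 days, and the 3 fibroblast markers to 202 to 242 CPM and 344 to 966 CPM. All of these 6 genes were called higher at 4 days. In whole tissue, a change in the number of cells of a type and a change in RNA per cell cannot be told apart.

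Nearly all counts of the set, 98.0% to 98.7% per library, fell on 5 gene symbols. The 2 identical SRP RNA genes Rn7s1 and Rn7s2 together held 75.9% to 80.5% of the set's counts per library, Rn7sk 13.9% to 17.5%, Rpph1 2.84% to 5.39% and Rmrp 0.575% to 1.08%. Per kilobase of model, the mean level over the 15 libraries was highest for Rn7s1 and Rn7s2 at 49898 CPM per kb each. Rn7sk followed at 18230, Rpph1 at 4298, Rmrp at 981, the U2 gene Rnu2-10 at 572 and the U1 gene Rnu1a1 at 538. The U2 and U1 values are for single genes. The Rnu1a1 sequence lies in 7 genes, which together took 327 to 817 CPM of library totals, against a mean of 88.2 CPM for Rnu1a1. That of Rnu2-10 also lies in Gm23849, Gm23971 and Gm24950, so U1 and U2 as a whole are not ranked here. Among guide RNAs the highest was Snora74a, at 240 CPM per kb, followed by Scarna10 at 189 and Snord15b at 162. The median C/D box gene stood at 2.03 CPM per kb and the median H/ACA box gene at 1.84.

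Longer RNAs were measured at higher levels. The 26 members of up to 100 bases had a median mean level of 0.0488 CPM, the 45 of 101 to 150 bases 0.263 CPM, the 22 of 151 to 250 bases 11.7 CPM and the 11 of 251 bases or more 61.4 CPM. The mean cDNA fragment length was 160.6 to 196.6 bases per library, which is longer than most snoRNAs, and 25 of the 26 shortest members had an effective length of 0 in every library. An effective length is the number of positions in the model at which a fragment of that library could start. These members therefore have counts but no length-scaled level. In addition, 50 members lie whole within a transcript of another gene, so that fragments of the host RNA cover the same bases. C/D box RNAs made up 43 of the 104 members (of 109 listed), H/ACA box RNAs 36 of 43, scaRNAs 8 of 9, major spliceosomal snRNAs 6 of 8, minor ones 2 of 2, SRP RNAs 3 of 3, RNase MRP and P models 3 of 3, Y RNAs 2 of 2 and 7SK RNA 1 of 1, while the U7 gene fell short of the count minimum. Just inside that minimum were Snord68 and Snord111 with 10.8 and 10.9 counts in all, and just outside were Snord23 with 9 and Snord1c with 8.5.

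**Figure D1:**
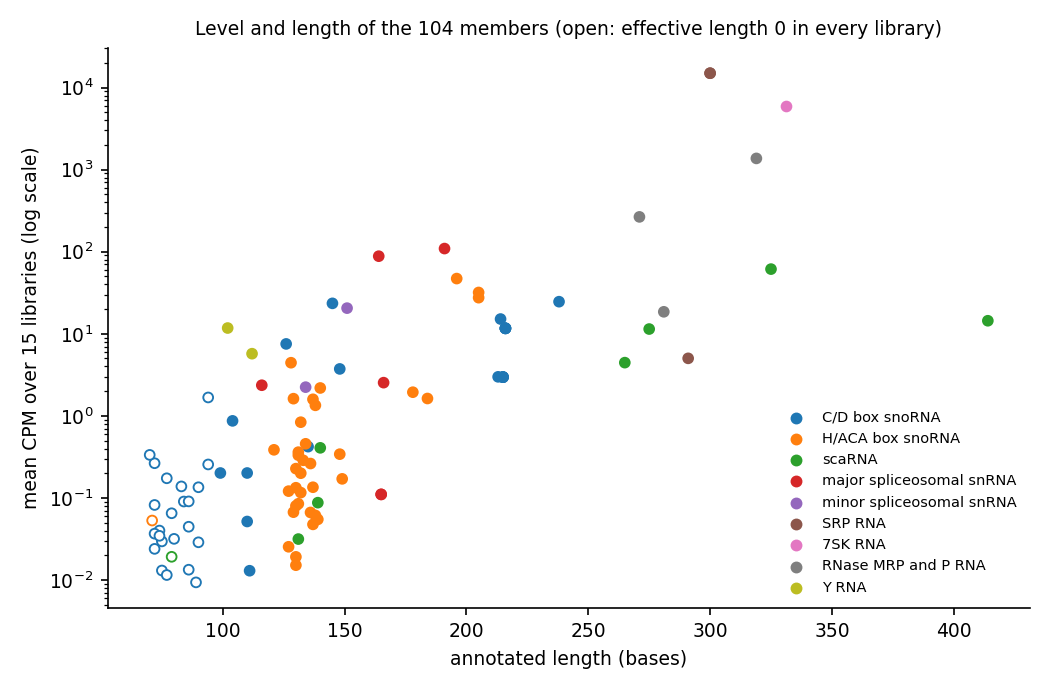
Mean level over the 15 libraries (CPM, log axis) of the 104 members against the length of the gene model in bases, coloured by RNA class. Open symbols mark the members with an effective length of 0 in every library, and the median level goes from 0.0488 CPM at up to 100 bases to 61.4 CPM at 251 bases or more.

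The sequences of the RNAs on which the results below turn were taken from GENCODE M21 transcripts of build GRCm38, where all 104 members matched in identifier and length. The U1 genes are shown first because they differ in so few bases. Rnu1a1 lies at chr11:87422867-87423030 on the plus strand, in an intron of Tex14, and Rnu1b1 at chr3:96359953-96360117 on the minus strand, with an identical copy, Rnu1b2, at chr3:96374021-96374185 on the plus strand. Capitals mark the bases in which they differ.
Rnu1a1: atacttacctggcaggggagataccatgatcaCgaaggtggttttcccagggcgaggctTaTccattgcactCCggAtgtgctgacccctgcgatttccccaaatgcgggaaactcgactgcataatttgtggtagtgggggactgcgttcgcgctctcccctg
Rnu1b1: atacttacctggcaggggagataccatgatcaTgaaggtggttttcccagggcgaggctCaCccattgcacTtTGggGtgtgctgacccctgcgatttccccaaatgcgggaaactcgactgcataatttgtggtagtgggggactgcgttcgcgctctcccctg
Counted from 1 at the 5′ end of Rnu1a1, Rnu1b1 carries C33T, T60C, T62C, C73T, C74G and A77G, plus 1 extra base at its position 72, and 158 of 165 aligned positions were identical (95.8%). The first 32 bases, which hold the 5′ end that pairs with 5′ splice sites, were the same in both.

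The U3 gene Rnu3b1 lies at chr11:87443237-87443452 on the plus strand, also in an intron of Tex14. It is shown because the annotation holds each of the 4 Rnu3b genes as overlapping models of 216 and 215 bases at 1 locus, and the capital marks the 1 base that separates the models. U8 (Snord118) lies at chr11:69073427-69073561 on the plus strand with no host gene. Snord15b lies at chr7:99479563-99479707 on the minus strand, within an exon of at least 1 annotated transcript of the ribosomal protein gene Rps3. Snord16a lies at chr9:64175423-64175521 on the plus strand, likewise within an exon of at least 1 annotated transcript of Rpl4. In the last 3, capitals mark the C box TGATGA and the last D box CTGA, where these letters occur.
Rnu3b1: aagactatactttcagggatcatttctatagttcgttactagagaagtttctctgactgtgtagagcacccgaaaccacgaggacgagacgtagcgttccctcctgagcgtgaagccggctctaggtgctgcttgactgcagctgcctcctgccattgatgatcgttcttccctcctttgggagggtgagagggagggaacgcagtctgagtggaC
Snord118: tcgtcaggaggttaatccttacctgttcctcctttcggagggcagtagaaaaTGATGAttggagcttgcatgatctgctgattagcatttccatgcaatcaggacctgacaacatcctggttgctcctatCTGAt
Snord15b: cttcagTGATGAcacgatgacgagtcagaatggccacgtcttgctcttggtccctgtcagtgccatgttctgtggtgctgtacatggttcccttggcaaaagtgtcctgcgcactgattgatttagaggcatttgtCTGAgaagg
Snord16a: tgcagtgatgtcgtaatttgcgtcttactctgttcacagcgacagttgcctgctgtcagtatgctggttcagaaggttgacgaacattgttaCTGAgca
Read on the RNA strand, TGATGA stood in 32 and CTGA in 37 of the 37 distinct C/D box sequences, and both stood in 5 of the 59 other sequences of the set. The letters ACA stood exactly 3 bases from the 3′ end in 28 of 36 H/ACA box sequences and in 2 of the 60 others. Snord16a holds no TGATGA in its model.

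After 4 days of isoproterenol, 6 members were called higher and 2 lower than in saline hearts (edgeR quasi-likelihood test, Benjamini-Hochberg adjusted over all genes tested). Over all genes tested, 6.06% were called higher and 3.41% lower. The share of members called was 7.69% in both directions, with identical copies counted as separate members. With copies and overlapping models summed it was 3.26%, against 9.49% of all genes. The 6 higher calls rest on 2 sequences, that of Rnu1b1 and Rnu1b2 and that of the 215-base models of the 4 Rnu3b genes. The lower calls were Snora74a and Snord15b. By class, the median log2 fold change was 0.31 for the 43 C/D box RNAs (29 positive), -0.10 for the 36 H/ACA box RNAs, -0.33 for the 8 scaRNAs (7 negative), -0.31 for the 3 SRP RNAs and -0.07 for the 6 major snRNAs, against 0.01 over all genes. In 3 members (2.88%) the 4-day libraries did not overlap the saline libraries, against 13.7% of all genes.

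**Figure D2:**
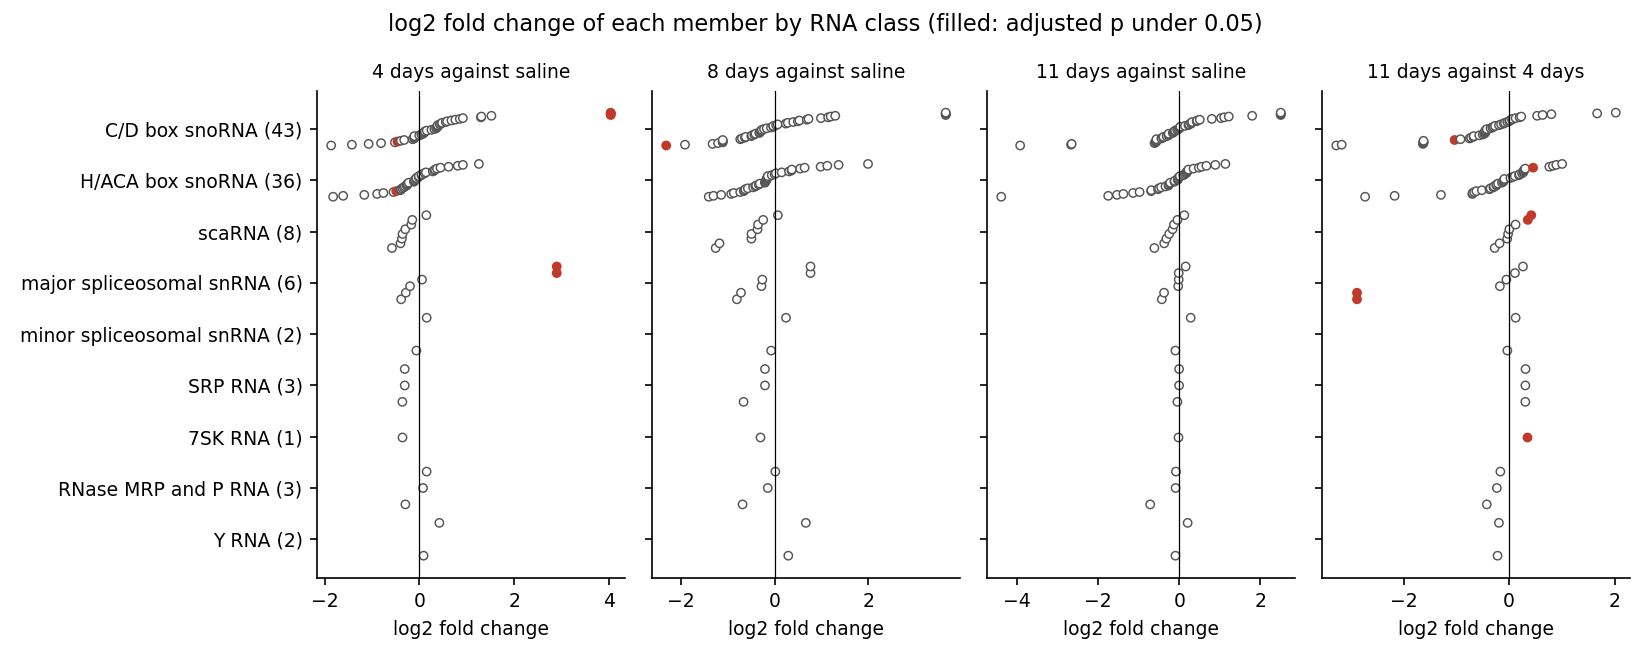
Log2 fold change of each of the 104 members, grouped by RNA class, at 4, 8 and 11 days against saline and at 11 against 4 days, with filled symbols for members at an adjusted p under 0.05. The filled symbols are 8 members at 4 days, 1 at 8 days, 0 at 11 days and 7 between 11 and 4 days.

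The clearest difference at 4 days was in Rnu1b1 and Rnu1b2, which are called U1b below. Rnu1b6, a U1b gene by name, is treated apart and was not called. It had 2254 counts over all libraries, against 119 for each of these copies. U1 snRNA recognises the 5′ splice site, and the U1b forms of the mouse are known as variants found mainly in embryonic and dividing cells. Rnu1b1 and Rnu1b2 together had 2.1, 1.1, 9.3 and 3.2 expected counts in saline libraries A to D and 81.1, 7.4, 87.7 and 15.9 in 4-day libraries A to D. Scaled to library size, these were 0.036, 0.0294, 0.076 and 0.127 CPM in saline (0.067 ± 0.045, SD, n = 4) and 0.705, 0.18, 0.817 and 0.524 CPM at 4 days (0.556 ± 0.28, SD, n = 4). Every 4-day library stood above every saline library, and 4-day B was the lowest of the 4. With the copies summed before the fit, the log2 fold change was 3.16 (SE 0.50, 8.94-fold, adjusted p = 0.00157), and each copy on its own gave 2.89 (SE 0.53, adjusted p = 0.00394). Leaving out any 1 of the 8 libraries kept the summed log2 fold change between 2.90 and 3.41, and all of these passed the threshold.

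U1b was not called at the later times. The summed U1b level was 0, 0.127 and 0.255 CPM in the 8-day libraries (0.127 ± 0.13, SD, n = 3) and 0.0375, 0, 0.161 and 0.0896 CPM in the 11-day libraries (0.0721 ± 0.07, SD, n = 4), and both groups overlapped saline. The log2 fold changes over saline were 0.95 at 8 days (adjusted p = 0.717) and 0.28 at 11 days (adjusted p = 0.902). Compared directly, 11 days was below 4 days by a log2 fold change of -2.87 (SE 0.52, adjusted p = 0.00353), with no overlap between the groups.

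Rnu1b1 and Rnu1b2 gave a small fraction of U1 counts, while Rnu1a1 did not pass the test. The U1 total taken here holds Rnu1a1, Rnu1b6, the genes that hold their sequences, Rnu1b1 and Rnu1b2, and no U1 gene of another sequence. Of every 1000 counts in this total, Rnu1b1 and Rnu1b2 took 0.063, 0.052, 0.11 and 0.141 in saline A to D. They took 0.988, 0.343, 1.18 and 0.971 in 4-day A to D, again without overlap. Rnu1a1 itself stood at 86.4, 85.2, 100 and 134 CPM in saline and at 101, 78.3, 97.5 and 75.1 CPM at 4 days, with a log2 fold change of -0.20 (SE 0.14, adjusted p = 0.471). Another form, Rnu1b6, which shares 98.2% of aligned positions with Rnu1b1, gave -0.39 (adjusted p = 0.469). Rnu1b6 and the genes that hold its sequence took more counts than Rnu1b1 and Rnu1b2, 258 to 1287 in saline and 204 to 891 at 4 days. Since Rnu1a1 and Rnu1b1 differ in 7 aligned positions between bases 33 and 77, only fragments that cover those bases can tell U1a from U1b. Rnu1b6 also carries T60C, T62C, C73T, C74G and A77G. It differs from Rnu1b1 only by T33C, T157G and 1 extra base at position 145. Only fragments over these bases can tell Rnu1b1 from Rnu1b6, and the Rnu1b1 and Rnu1b2 values rest on few counts. The macrophage and fibroblast markers that moved with the same comparison are given above, and their part in this result was not tested.

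**Figure D3:**
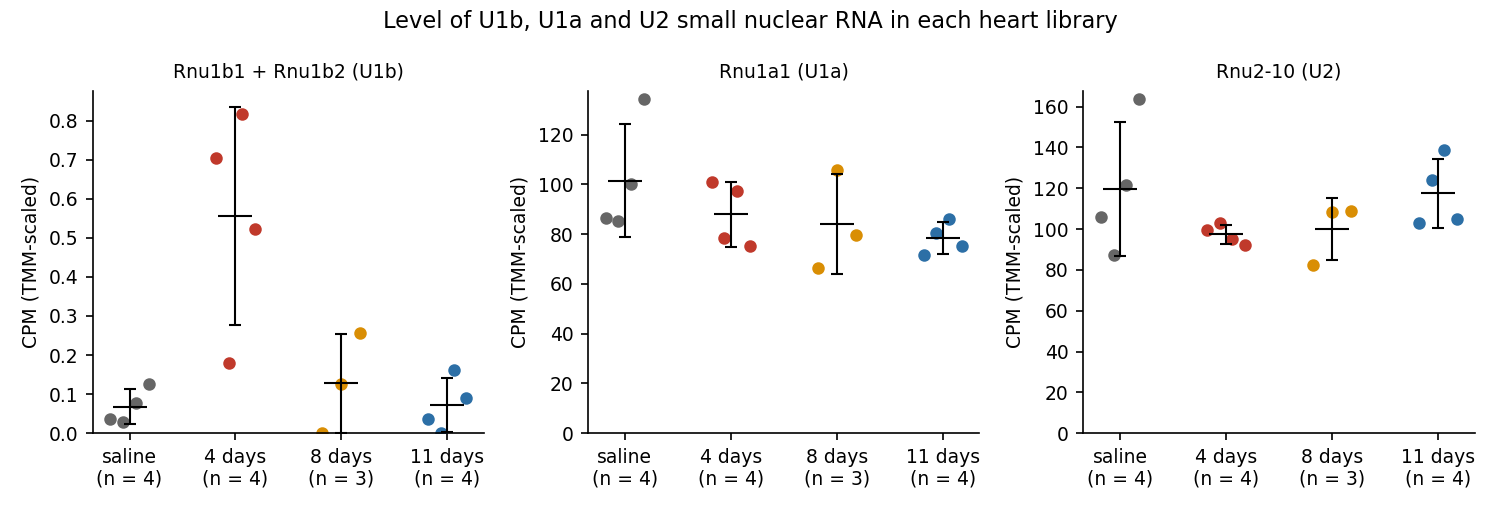
Level of U1b (Rnu1b1 and Rnu1b2 summed, without Rnu1b6), U1a (Rnu1a1 only) and U2 (Rnu2-10 only) in each of the 15 libraries by group, in CPM, with bars at the group mean and SD. The 4-day libraries lie at 0.18 to 0.817 CPM for U1b, above all saline libraries at 0.0294 to 0.127 CPM, while the groups overlap for Rnu1a1 and Rnu2-10.

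The other spliceosomal RNAs did not pass the test in any comparison with saline. U2 (Rnu2-10), which pairs with the branch point, stood at 106, 87.1, 121 and 164 CPM in saline and at 99.5, 103, 95.4 and 92.4 CPM at 4 days, with a log2 fold change of -0.29 (SE 0.15, adjusted p = 0.282). Among the U12-dependent spliceosome's RNAs, Rnu12 had means of 21.5, 20.2, 20.4 and 20 CPM in saline, 4-day, 8-day and 11-day hearts, and Rnu11 of 2, 2.17, 2.38 and 2.43 CPM, so the means differed by less than the saline SD (6.95 and 1.01 CPM). The U5 gene Rnu5g was listed at 0 in saline B and 8-day C and at 0.844 to 4.16 CPM in the other libraries.

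For U3 RNA, which is needed for the early cleavages of the ribosomal RNA precursor, the calls depended on how overlapping models were counted. Each 215-base Rnu3b model was listed at 0, 0, 0.896 and 0 CPM in saline A to D, at 7.7, 3.44, 11.2 and 0.589 CPM at 4 days, at 5.46, 0 and 7.31 CPM at 8 days and at 3.28, 1.1, 2.06 and 1.44 CPM at 11 days. The 4 models have identical sequences and received identical values, so they are 1 measurement. Their log2 fold change at 4 days was 4.03 (SE 0.87, adjusted p = 0.00981), but 4-day D, at 0.589 CPM, lay below saline C, and DESeq2 gave an adjusted p of 0.133. Without saline C the saline values are all 0 and no fold change can be given. The share of all Rnu3b counts placed on the 215-base models was 0% in 3 saline libraries and 7.16% in saline C, 3.63% to 55.6% at 4 days, 83.3%, 0% and 47.6% in 8-day A to C, and 8.57% to 29.5% at 11 days. Since the overlapping models differ in 1 base, counts can pass between them within a locus.

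Summed over the 8 models, U3 from the Rnu3b genes stood at 56, 52.8, 50 and 82.5 CPM in saline (60.3 ± 15, SD, n = 4), 99.9, 63.9, 80.7 and 64.9 CPM at 4 days (77.4 ± 17), 26.2, 47.4 and 61.4 CPM at 8 days (45 ± 18) and 44.4, 51.5, 51.5 and 44 CPM at 11 days (47.9 ± 4.2). Saline D overlapped the 4-day range, and the summed log2 fold change at 4 days was 0.37 (SE 0.17, adjusted p = 0.209). Without saline D it was 0.55 with an adjusted p of 0.0325. With copies and overlapping models summed throughout, 9.49% of all genes tested were called at 4 days, and the calls among the set came down to U1b, Snora74a and Snord15b.

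Between 11 and 4 days the summed U3 values did separate. All 11-day libraries lay below all 4-day libraries for Rnu3b, with a log2 fold change of -0.70 (SE 0.12, adjusted p = 0.00288), and leaving out any 1 library kept it between -0.78 and -0.56 and past the threshold. In this summed fit 10.3% of all genes were called between these times. Rnu3a, whose sequence shares 85.2% of aligned positions with Rnu3b1, was at 34.7, 20.6, 22.9 and 17.3 CPM at 4 days and 13.9, 16.7, 15.9 and 14.4 CPM at 11 days, also without overlap, with a log2 fold change of -0.67 (SE 0.16, adjusted p = 0.0167). That call was lost without 11-day A (adjusted p = 0.0525) or 11-day D (adjusted p = 0.0529).

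**Figure D4:**
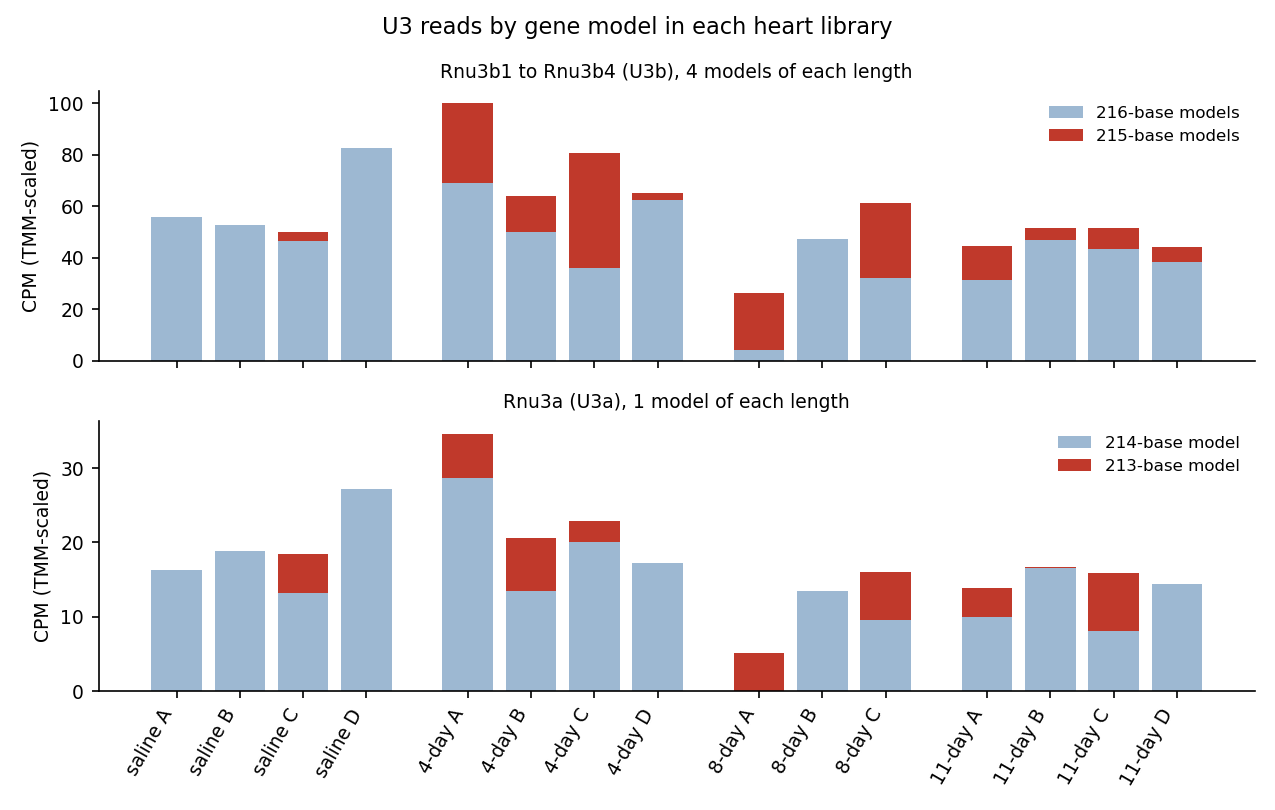
Level of U3 in each library (CPM), stacked by gene model, for the 4 Rnu3b genes above and Rnu3a below, with the shorter models in red. The summed Rnu3b level runs from 63.9 to 99.9 CPM at 4 days and from 44 to 51.5 CPM at 11 days, while the percent of it on the 215-base models ranges from 0% to 83.3% over the libraries.

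U8 (Snord118), which is needed for maturation of 5.8S and 28S ribosomal RNA, was low in these libraries. Its counts were 18, 16, 21 and 13 in saline, 102, 22, 56 and 16 at 4 days, 5, 14 and 10 at 8 days, and 15, 10, 20 and 33 at 11 days. In CPM these were 0.324, 0.471, 0.177 and 0.549 in saline, 0.887, 0.565, 0.52 and 0.524 at 4 days, 0.152, 0.592 and 0.319 at 8 days and 0.281, 0.275, 0.359 and 0.329 at 11 days. The difference from saline at 4 days had a log2 fold change of 0.91 (SE 0.35, adjusted p = 0.129), and the groups overlapped in saline D. From 4 to 11 days U8 had a log2 fold change of -1.03 (SE 0.24, adjusted p = 0.0162), with every 11-day library below every 4-day library. Without 4-day A the log2 fold change was -0.77 and the call was lost (adjusted p = 0.0865). U13 (Snord13) gave -0.57 between the same times (SE 0.23, adjusted p = 0.157).

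Snora74a and Snord15b were lower at 4 days. Snora74a, an H/ACA box RNA within an exon of the gene model AC121821.1, stood at 54.1, 41.9, 51.7 and 69.5 CPM in saline (54.3 ± 11.4, SD, n = 4) and at 39.8, 44.5, 35.7 and 33.9 CPM at 4 days (38.5 ± 4.7), overlapping only between saline B and 4-day B. The log2 fold change was -0.49 (SE 0.13, adjusted p = 0.0344), and the call was lost without saline A (adjusted p = 0.0783), saline C (0.0617), saline D (0.0883), 4-day A (0.0744), 4-day C (0.0946) or 4-day D (0.108). It was also lost with scaling by library size (adjusted p = 0.16) and with fragment length as a covariate (0.0557). At 8 days Snora74a stood at 39.1, 45.8 and 37.8 CPM, and at 11 days at 51.4, 56.8, 53.7 and 50.4 CPM, above all 4-day libraries (log2 fold change 0.46, SE 0.08, adjusted p = 0.00406).

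Snord15b, a C/D box guide, stood at 22, 26.4, 28.7 and 34 CPM in saline (27.7 ± 5.01, SD, n = 4) and at 17.4, 22.9, 22.3 and 17.4 CPM at 4 days (20 ± 3.01). Only saline A fell within the 4-day range. The log2 fold change was -0.46 (SE 0.13, adjusted p = 0.0402), while that of its host Rps3 was -0.11 (SE 0.09, adjusted p = 0.511). The call was lost without saline C (adjusted p = 0.0988), saline D (0.115), 4-day A (0.131) or 4-day D (0.121). It was also lost with scaling by library size (adjusted p = 0.249), with fragment length as a covariate (0.114) and with limma voom (0.0528). Mean fragment length was 164.6 to 180.9 bases in saline and 161.8 to 166.3 bases at 4 days, and its part in these calls was not tested. The most abundant other snoRNAs and scaRNAs did not pass the test at 4 days, among them Snord17 (-0.32, adjusted p = 0.284), Snora73b (-0.12, adjusted p = 0.803), Scarna13 (-0.17, adjusted p = 0.575) and Scarna10 (-0.40, adjusted p = 0.0881).

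At 8 days no member was called higher and 1 was called lower, against 1.08% and 1.2% of all genes. The median log2 fold change of the members was -0.21, against -0.01 over all genes. It was -0.23 in C/D box RNAs, -0.18 in H/ACA box RNAs and -0.43 in scaRNAs (7 of 8 negative). Library 8-day A had longer fragments, with a mean of 196.6 bases against 167.0 in 8-day B and 160.6 in 8-day C. The members held 2.28% of its counts, against 3.50% and 4.11% in B and C. The part of 8-day A in these medians was not tested. The member called was Snord16a, with 15, 13, 31.9 and 6 counts in saline and 3, 1 and 1 at 8 days. Its level was 0.27, 0.382, 0.27 and 0.253 CPM in saline and 0.0915, 0.0423 and 0.0319 CPM at 8 days, without overlap. The log2 fold change was -2.31 (SE 0.56, adjusted p = 0.0455), and leaving out any 1 of the 7 libraries kept it between -2.93 and -2.02 but lost the call each time (adjusted p from 0.0605 to 0.211). DESeq2 gave it a log2 fold change of -2.37 and no adjusted p, and called Rny3, higher, in its place, against 3.72% of all genes. The model had an effective length of 0 in 14 of 15 libraries, and its host Rpl4 gave -0.16 (SE 0.10, adjusted p = 0.553).

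In 5 members (4.81%) the 8-day and saline libraries did not overlap, against 12.9% of all genes. Besides Snord16a these were Rny3, Snord21 and Snora33, all higher, and Scarna6, lower. Rny3, a Y RNA that binds the Ro60 protein, was at 12, 6.71, 7.8 and 11.4 CPM in saline and 13.5, 12.8 and 18.6 CPM at 8 days, with a log2 fold change of 0.66 (SE 0.19, adjusted p = 0.0984). Scarna6 was at 4.61, 4.88, 5.4 and 6.33 CPM in saline and 3.75, 4.36 and 3.22 CPM at 8 days (-0.49, SE 0.15, adjusted p = 0.137). Snord21 had means of 1.44 and 2.3 CPM (0.72, SE 0.23, adjusted p = 0.14), and Snora33 had at most 4 counts in any of these libraries.

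At 11 days no member was called by edgeR in either direction, against 1.82% of all genes called higher and 1.89% lower. At an unadjusted p under 0.05 there were 20 members (19.2%, against 17.2% of all genes), 4 positive and 16 negative. DESeq2 called 6 members, all lower (5.77%, against 6.1% of all genes), and limma voom 4, all higher (3.85%, against 4.07%). All these shares count identical copies as separate members. Of the 6 DESeq2 calls, 4 were the Rnu3b models of 216 bases, which have identical sequences and are 1 measurement. With copies and overlapping models summed, edgeR still called no member, against 3.74% of all genes. The 4 members without overlap (3.85%, against 10.6% of all genes) were the 215-base Rnu3b models, with a log2 fold change of 2.50 (SE 0.71, adjusted p = 0.0731). The summed Rnu3b models gave -0.33 (adjusted p = 0.213), so that the direction at 11 days turned once the overlapping models were added up. Rnu1a1 gave -0.38 (SE 0.13, adjusted p = 0.129) and Snord22 -0.58 (SE 0.18, adjusted p = 0.0891).

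Over all 4 groups, the F test called 9 members, against 13.0% of all genes. These were Rnu1b1, Rnu1b2, Snora74a, Snord16a, Scarna10 and the 4 Rnu3b models of 215 bases. With copies and models summed, the adjusted p was 0.00152 for U1b, 0.0411 for Rnu3b and 0.0414 for Rnu3a.

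The treated groups were then compared with each other, without the saline libraries. Between 11 and 4 days 4 members were called higher and 3 lower, against 3.75% and 6.56% of all genes. The lower members were Rnu1b1, Rnu1b2 and Snord118, described above. The higher members were Snora74a, Scarna2, Scarna10 and Rn7sk, and for these every 11-day library lay within the range of the saline libraries. The 3 macrophage markers, the leukocyte marker Ptprc (-0.99), 1 of 3 fibroblast markers (Col1a1, -2.79) and Acta1 (-2.07) were lower at 11 than at 4 days, and of the 5 heart muscle markers Myl2 (0.56) and Tnnt2 (0.31) were higher and Actc1 (-0.57) lower. Their part in these differences was not tested. Between 8 and 4 days, and between 11 and 8 days, no member was called, against 0.25% and 0.138% of all genes. At an unadjusted p under 0.05 there were 13 members (12.5%, against 11.6% of all genes) and 16 members (15.4%, against 11.2%) in these comparisons. DESeq2 called 0 members between 8 and 4 days, against 1.98% of all genes, and 2 between 11 and 8 days, Scarna10 and Snora74a (1.92%, against 1.17%).

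Scarna2 was at 13.7, 11.6, 11.9 and 10 CPM at 4 days and 14.5, 16.6, 16.3 and 16.4 CPM at 11 days, without overlap, and rose by a log2 fold change of 0.42 (SE 0.09, adjusted p = 0.00845). Scarna10, at 55.5, 58.9, 49.9 and 45.9 CPM against 59.5, 69.1, 75.1 and 66.5 CPM, rose by 0.35 (SE 0.09, adjusted p = 0.0232). The call for Scarna10 was lost without 4-day C (adjusted p = 0.0605), 4-day D (0.0688), 11-day B (0.0617) or 11-day C (0.059). Its model overlaps an exon of Ncapd2, a condensin subunit gene, which went the other way with a log2 fold change of -0.76 (SE 0.12, adjusted p = 0.00137).

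Rn7sk, at chr9:78175303-78175633 on the minus strand, was at 6475, 5878, 5296 and 9251 CPM in saline, 5179, 5487, 5545 and 4641 CPM at 4 days, 4510, 5708 and 6056 CPM at 8 days and 6427, 6982, 6532 and 6547 CPM at 11 days. The saline libraries spanned nearly the whole range, and the log2 fold change at 4 days was -0.36 (SE 0.15, adjusted p = 0.174). Between 4 and 11 days the groups did not overlap, and 7SK rose by 0.34 (SE 0.09, adjusted p = 0.0242). This call was lost without 4-day A (adjusted p = 0.0776), 4-day D (0.074), 11-day B (0.0786), 11-day C (0.0509) or 11-day D (0.0641).

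The mean fragment length also separated these groups, with 161.8 to 166.3 bases at 4 days and 166.9 to 169.5 bases at 11 days. With fragment length as a covariate no member and only 4 of 26829 genes were called, so time and fragment length cannot be told apart in this comparison. Scaling mattered as well, since without TMM, on library totals only, the median over all genes shifted by -0.15 and the calls among members became 1 higher and 9 lower. In that scaling the log2 fold change of Scarna2 was 0.28 (adjusted p = 0.124), of Scarna10 0.22 (0.148) and of Rn7sk 0.20 (0.144), each still positive.

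**Figure D5:**
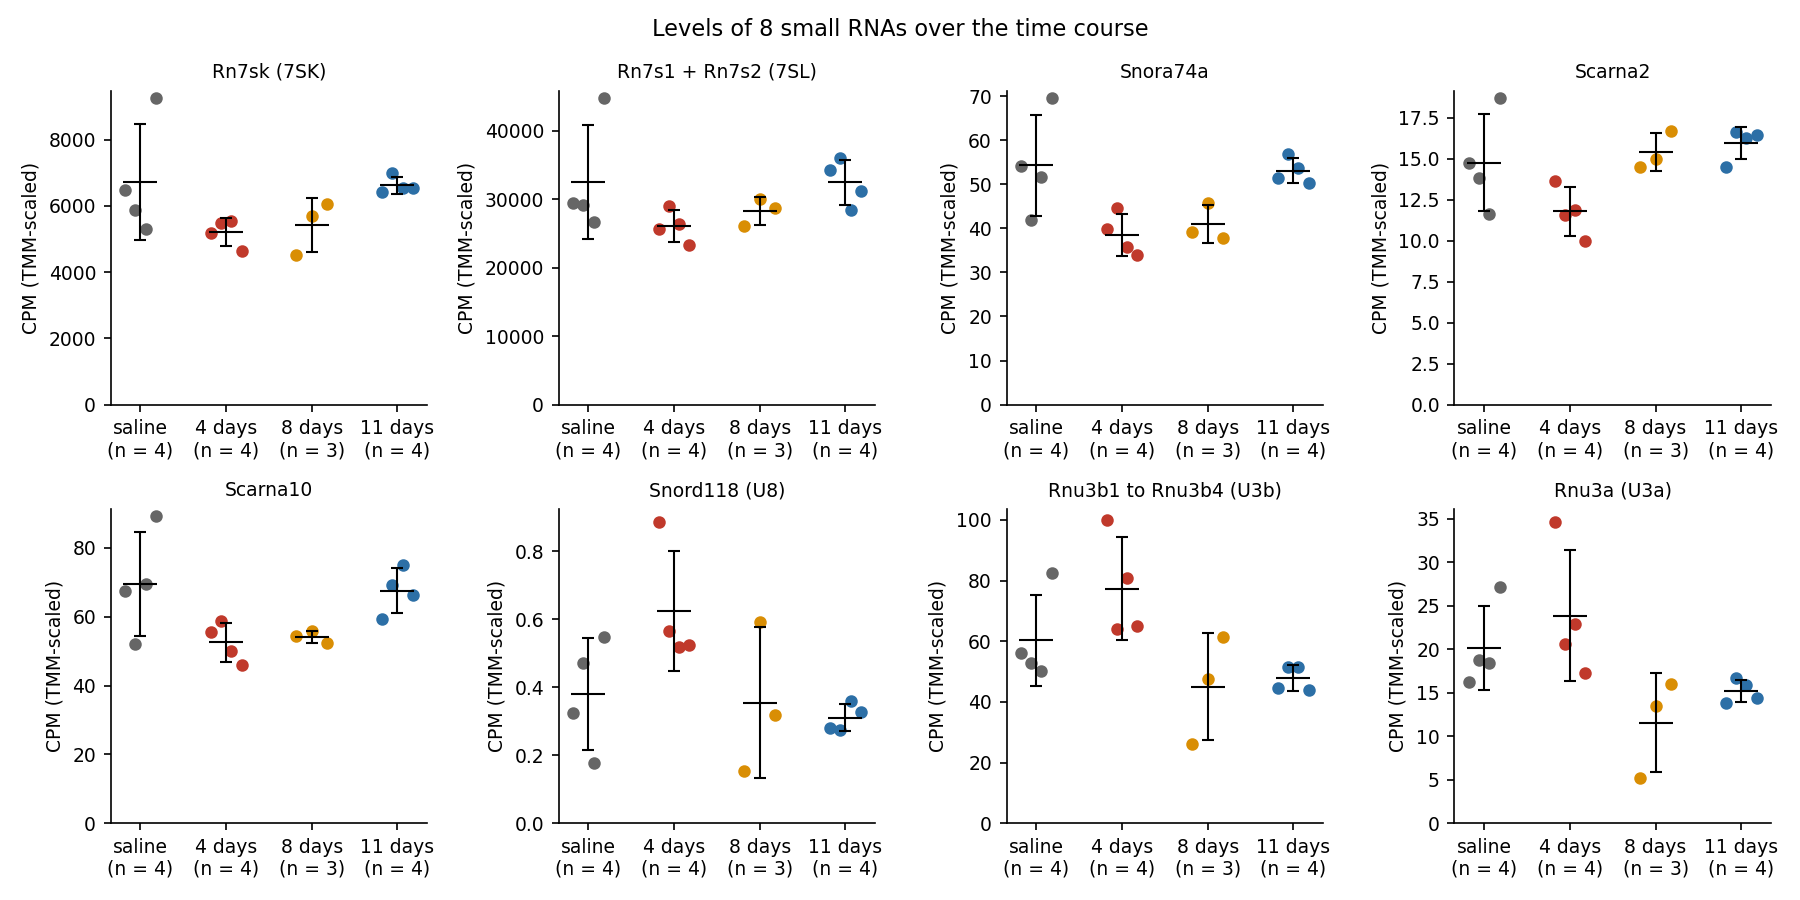
Levels in each library (CPM) by group for 7SK, the summed SRP RNAs, Snora74a, Scarna2, Scarna10, U8 and the summed U3 genes, with bars at the group mean and SD. Snora74a, Scarna2, Scarna10 and Rn7sk are lower at 4 than at 11 days with no overlap, and U8 and both U3 sums are higher at 4 days.

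The remaining structural RNAs did not pass the test at any time. Rn7s1 and Rn7s2 had each a mean of 16248 ± 4147 CPM in saline (SD, n = 4), 13049 ± 1163 at 4 days, 14134 ± 995 at 8 days and 16238 ± 1658 at 11 days, with a log2 fold change of -0.31 at 4 days (SE 0.15, adjusted p = 0.259). The large spread in saline came from library D, at 22396 CPM against 13314 to 14730 CPM in A to C. Rpph1, the RNA of RNase P, which trims the 5′ end of transfer RNA precursors, was at 1378 ± 401, 1524 ± 273, 1248 ± 300 and 1304 ± 22 CPM, with adjusted p of 0.696, 0.83 and 0.853 at 4, 8 and 11 days. The RNase MRP RNA Rmrp has 2 overlapping models, and their sum changed by 0.05 at 4 days (adjusted p = 0.915), -0.03 at 8 days (0.969) and -0.13 at 11 days (0.662). Rny1 had means of 5.55, 5.7, 6.72 and 5.17 CPM, with a log2 fold change of 0.29 at 8 days (SE 0.18, adjusted p = 0.544).

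Most guide RNAs are processed from introns of other genes, so the members were set beside their hosts. Of the 104 members, 78 lay within another gene model on the same strand, and 9 members had an antisense gene over them. Of the 78, 39 lay in an intron and 39 in or over an exon of at least 1 annotated transcript. Exons of all annotated transcripts of a host were pooled, so an RNA in an intron of 1 transcript can count as exonic through another. The 78 include the shorter Rmrp model, which lies within the longer one. The 74 members whose host was tested lay in 54 hosts. At 4 days 2 of these hosts were called higher and 1 lower, against 9.47% of all genes in either direction, and member and host had the same sign in 43 of 74 cases. At 8 and 11 days the same sign was found in 42 and 36 of 74, and in 28 of 74 between 11 and 4 days. These cases include 9 members within Tex14, namely Rnu1a1 and the 8 Rnu3b models (identical copies among them). Without Tex14 the same sign was found in 39, 37, 32 and 28 of 65 cases at 4, 8 and 11 days and between 11 and 4 days. Member and host were both called only for Scarna10 and Ncapd2 between 11 and 4 days, in opposite directions. Because the strand setting of the counting is not given in the sources used here, host and antisense fragments cannot be told apart from the member's own where the models overlap.

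The genes for protein partners of these RNAs were read from the same fits, in which 9.47% of all genes were called in either direction at 4 days, 2.29% at 8 days, 3.7% at 11 days and 10.3% between 11 and 4 days. None of the 11 C/D box snoRNP genes tested (Fbl, Nop56 and Nop58 among them) was called in any comparison with saline or between 11 and 4 days, with a median log2 fold change of -0.13 at 4 days. The same held for the 9 genes of the 7SK particle and P-TEFb and the 10 genes of SRP proteins. Of 9 H/ACA box snoRNP genes only Nolc1 was called, between 11 and 4 days (0.32, adjusted p = 0.0285). Of 11 RNase MRP and P protein genes, Rpp25 rose at 4 days by a log2 fold change of 1.51 (SE 0.28, adjusted p = 0.00399) and Rpp40 was higher at 11 than at 4 days (0.54).

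Among 33 genes of snRNA transcription, snRNA end processing and RNA polymerase III, Polr3a (0.32) and Ints3 (0.34) were higher at 4 days. Polr3g, which encodes a polymerase III subunit with a second form encoded by Polr3gl, was higher at 8 days (0.90, adjusted p = 0.00968) and 11 days (0.81, adjusted p = 0.00398). Maf1, the polymerase III repressor, Polr3g and Polr3gl were higher at 11 than at 4 days, and none of the 33 genes was lower in these comparisons. Of 3 genes for Y RNA and La proteins, Ro60 was higher at 11 days (0.33, adjusted p = 0.0239). Of 15 genes of snRNA export and assembly, Phax was higher at 11 days (0.38) and Ddx20 at 11 against 4 days (0.33).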

How the data were processed

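Total RNA from heart was extracted with TRIzol, treated with DNase I and made into libraries with a TruSeq total RNA kit. Per the labels, the authors used cutadapt 4.1, HISAT2 2.2.1 and RSEM 1.3.3 on GRCm38.p6, and deposited RSEM expected counts per gene, with FPKM values and effective lengths. FPKM values were read only to count genes that RSEM lists at 0 there (332 values had counts above 0 and an FPKM of 0). The study's methods compared each treated group with saline on its own.

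Expected counts were rounded. Genes reaching a summed count of 10 in the 15 libraries were tested with edgeR 4.0.16 (R 4.3.3; TMM scaling, quasi-likelihood F test, two-sided), with 1 fit per comparison and Benjamini-Hochberg adjustment over all 26829 genes, at a threshold of 0.05. In libraries simulated for the 4-day comparison (26795 genes), the fit recovered 84% and 96% of 50 genes lowered or raised by 2 on the log2 scale. It recovered 62% and 68% of 50 lowered or raised by 1. The changed genes were drawn only from genes above a minimum mean count, so these rates do not cover members with few counts. The 26 members of up to 100 bases had a median of 42.7 counts over all 15 libraries. SE is the absolute log2 fold change divided by the square root of F. Levels are CPM scaled by TMM over all libraries. DESeq2 1.42.0 and limma 3.58.1 (voom) served as alternatives, beside other scalings, filters, length offsets, a fragment length covariate, a replicate block and leaving out each library. Summing overlapping models as well as identical copies was chosen after seeing the data.

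The members named are those past the threshold against saline or in the F test, the 3 of highest mean level per class, and the 7SK, SRP, RNase MRP, RNase P and Y RNAs. Snord118, Scarna6, Snord21, Snora33, Snord13, Snord22, Rnu1b6 and Rnu3a, where outside this rule, were singled out after their values were seen. Members, classes and gene lists were chosen with earlier results of these data known. Positions and sequences come from GENCODE M21 transcripts (Biopython 1.88 for alignments). The methods name 4 replicates in each group and state that a replicate of the 8-day treatment was left out for quality issues. The 3 listed libraries of the 8-day group are used here.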

Additional observations from a re-analysis of the deposited data

Results flagged for a closer look

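Among 90 groups of 4 libraries looked at for a library far from the other 3, 10 stood out by the size of the gap between that library and its nearest neighbour. Chance gives about 1 in 20 only for independent values. Identical copies were counted separately among the 90 and the 10, so these rates cannot be compared. In saline D, Rn7s1 was at 22396 CPM and Rn7s2, its identical copy, at 22396 CPM, against 13314 to 14730 CPM in saline A to C. In the same library Snord17 was at 41.4 CPM against 23.4 to 25.4 CPM. In saline C each of the 4 Rnu3b models of 215 bases was at 0.896 CPM against 0 in the others, which is 1 measurement listed 4 times. Rny1 was at 9.21 CPM in 4-day A against 4.06 to 4.84 CPM, Scarna2 at 14.5 CPM in 11-day A against 16.3 to 16.6 CPM, and Snord16a at 0.382 CPM in saline B against 0.253 to 0.27 CPM.

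The effects at 4 and 11 days were compared directly, and 7 members differed between these times. The log2 fold change of 11 against 4 days was -2.88 for Rnu1b1 and -2.88 for its copy Rnu1b2, -1.03 for Snord118, 0.46 for Snora74a, 0.42 for Scarna2, 0.35 for Scarna10 and 0.34 for Rn7sk. The mean fragment length separated the same 2 groups and cannot be told apart from time.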

How the results depend on the processing

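The share of all genes called under each setting follows each count in brackets. The 8 members called at 4 days (9.47%) became 4 with robust dispersions (9.75%), 3 with limma voom (11.6%), 4 with identical copies summed (9.47%) and 3 with overlapping models summed as well (9.49%). The 1 called at 8 days (2.29%) became 13 with scaling by library size (1.67%), 6 without the filter (2.53%), 0 with effective length offsets (1.34%) and 5 with the fragment length covariate (2.69%), and DESeq2 called a different one, Rny3 (3.72%). None was called at 11 days (3.7%), but 4 were with scaling by library size (2.37%), 9 without the filter (3.55%), 8 with the covariate (3.92%), 6 with DESeq2 (6.1%) and 4 with limma voom (4.07%). The 7 between 11 and 4 days (10.3%) became 13 without the filter (8.41%), 0 with the covariate (0.0149%) and 11 with DESeq2 (11.9%). Between 11 and 8 days (0.138%) 2 were called without the filter (0.843%), 1 with robust dispersions (0.462%) and 2 with DESeq2 (1.17%). The 9 of the F test (13.0%) became 5 with effective length offsets (8.98%), 14 with the covariate (12.6%) and 5 with copies summed (13.0%). Scaling by library size gave 9 members without overlap at 8 days and 8 at 11 days (5 and 4 otherwise), turned Rnu12 at 4 days to 0.166, and split the calls 7 higher to 0 lower at 4 days and 5 to 8 at 8 days, where it moved the median of all genes by 0.21 and -0.10. The cause of these differences was not tested.

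Correlations of deviations from group means over all genes lay between -0.069 and 0.059 for libraries of the same letter. Libraries of different letters were not compared, so these values cannot decide whether the letters pair the libraries. With the replicate block 7 members were called at 4 days (7.75% of all genes), 5 at 8 days (2.55%), 10 at 11 days (4.11%), 0 between 8 and 4 days (1.58%), 15 between 11 and 4 days (9.74%), 3 between 11 and 8 days (0.783%) and 8 in the F test (10.7%), and under it the calls for Snora74a at 4 days and Snord16a at 8 days were lost (adjusted p = 0.0691 and 0.0736).

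Leaving out 1 library gave 6 to 9 calls at 4 days, 0 to 5 at 8 days (5 without saline C), 0 to 8 at 11 days (8 without saline C), 5 to 16 between 11 and 4 days (16 without 4-day B, 11 without 4-day C), 0 to 5 between 11 and 8 days and 4 to 11 in the F test (4 without 4-day A). Without saline D, whose levels of many members were the highest of the group, 9 log2 fold changes near 0 turned positive. Their ranges were -0.128 to 0.171 for Rn7sk, -0.141 to 0.107 for Snora74a, -0.209 to 0.133 for Rpph1, -0.092 to 0.194 for Rn7s1, -0.153 to 0.165 for Rnu2-10, -0.234 to 0.128 for Rnu12 and -0.162 to 0.098 for Scarna10 at 11 days, -0.36 to 0.053 for Rpph1 at 8 days and -0.198 to 0.147 for Rnu12 at 4 days. Members under 1 CPM rest on few counts per library, and intervals cover the spread between these libraries only.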
